A study of Bos taurus with 6 samples.

Results

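The genes described here are the translation factors and aminoacyl-tRNA synthetases of bovine longissimus muscle, the machinery that works on the ribosome without being part of its protein shell. They were taken from the table of transcripts that the authors called different between the embryonic and adult stages. A transcript was a member when its symbol began with EIF or EEF and a digit, when its Gene Ontology (GO) terms held translation or translational initiation, or when it was placed in the KEGG pathway of aminoacyl-tRNA biosynthesis, and symbols of ribosomal proteins (RPL, RPS, MRPL, MRPS) were dropped. This gave 96 transcripts of 95 genes among the 5288 listed, 44 of them by symbol, 71 by GO term and 23 by pathway, with overlap between the routes. Of the 96, 79 are translation factors, synthetases or their regulators, 12 are ribosomal proteins that the table lists under other names, and 5 have another function. These 5 are EIF2C1, which is Argonaute 1 and no initiation factor, EXOSC1 and EXOSC3 of the RNA exosome, METTL17, and a gene without a name. ICT1, counted here among the 79, is named MRPL58 in RefSeq, a symbol of a mitochondrial ribosomal protein.

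RNA was taken from the longissimus muscle of Qinchuan cattle at the embryonic stage (90 d, 3 samples) and at the adult stage (24 M, 3 samples). Ribosomal RNA was depleted from total RNA, although polyA RNA stands as the molecule in the labels, and the libraries marked the strand. The table gives 1 FPKM value (sequenced fragments per unit of exon length, relative to all mapped fragments of the stage) per stage and none per animal, so that no spread between animals, no test and no p-value can be given for any difference below. The table does not give the number of fragments behind each value.

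Translation begins when eIF2 brings the initiator tRNA to the small ribosomal subunit, eIF4 factors load that subunit on the capped mRNA, and eIF3 holds the complex together until the start codon is found. Elongation factors then deliver each charged tRNA and move the ribosome along, and the synthetases attach each amino acid to its tRNA. Mitochondria make a small set of respiratory chain proteins with factors of their own and, for most amino acids, separate synthetases, all encoded in the nucleus. In rodents, muscle fibres and neurons replace the elongation factor isoform EEF1A1 by EEF1A2 after birth.

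All 96 members had a higher FPKM in the adult than in the embryo. The table lists only called transcripts, none with a higher-to-lower ratio under 2.001, and 90.3% of its transcripts were at least 2-fold higher in the adult, so this count says little about the members. At least 4-fold higher were 79 of the 96 members (82.3%) against 69.5% of all listed transcripts, and at least 16-fold higher were 20 members (20.8%) against 20.1%. The median log2(adult/embryo) of the members was 3.16, with quartiles of 2.25 and 3.86 and a range from 1.16 to 11.46, beside a median of 2.71 with quartiles of 1.81 and 3.72 over all listed transcripts. Among the 79 factors, synthetases and regulators the median was 3.32. As a share of the summed FPKM of the table, the members made up 1.93% in the embryo and 1.81% in the adult. Their joint share was thus nearly the same in both stages, but this rests on EEF1A2. It held 0.694 of the 1369 FPKM of the members in the embryo and 1952 of 12180 in the adult. The joint share of the other members was lower in the adult. An embryonic FPKM below 1 was seen in 25 members (26.0%), against 33.4% of all listed transcripts.

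Because nearly all listed transcripts were higher in the adult, the ratios were also read against 4 other baselines, which lower every log2 ratio by the same amount. That amount was 2.71 for the median of all listed transcripts, 2.31 for the cytosolic ribosomal proteins, 3.25 for an equal FPKM total in both stages and 4.42 for 18 listed housekeeping genes. Above these baselines were 65, 71, 47 and 9 members, respectively. The housekeeping baseline is no stable reference. Of 27 housekeeping symbols only the 18 called different had a row. All 18 were higher in the adult, with log2 ratios from 1.53 (RPLP0) to 6.79 (G3PDH). The 9 that were above every baseline were EEF1A2, ETF1, IARS2, EIF5, EIF4A2, AIMP2, EIF2S1, GFM2 and a transcript described as the mitochondrial ribosomal protein MRPS15, and 25 members were below every baseline. The direction of most members relative to other genes therefore rests on the baseline, whereas the order of the members among themselves does not.

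**Figure D1:**
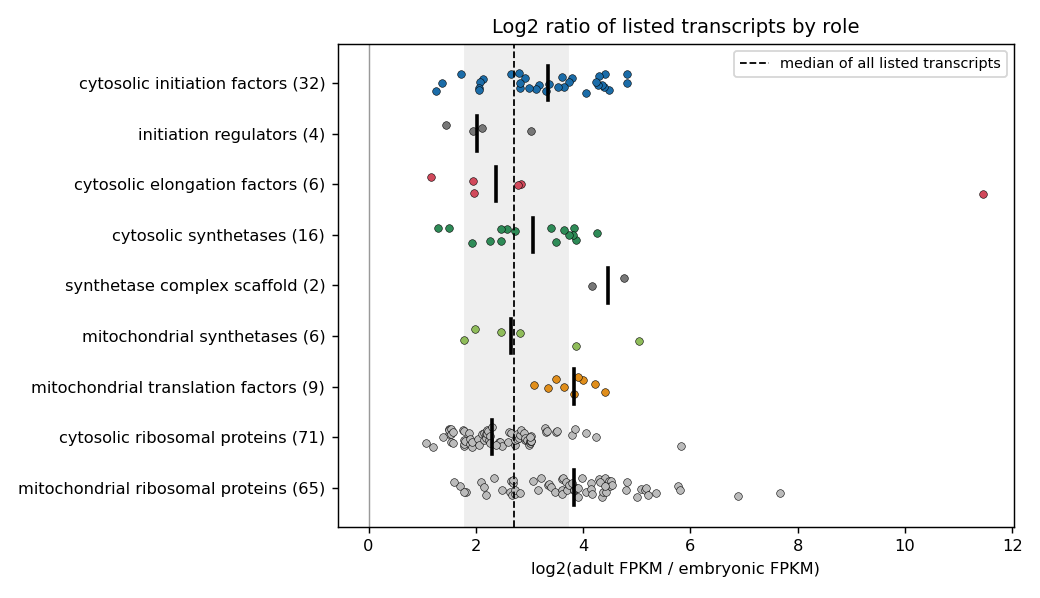
Each point is 1 listed transcript, placed on the horizontal axis by log2(adult FPKM/embryonic FPKM) and grouped by role, with the number of transcripts in parentheses; the thick bar is the median of the role, the dashed line the median of all listed transcripts (2.71) and the grey band their quartiles. The 9 mitochondrial translation factors lie to the right of the dashed line, EEF1A2 stands alone at 11.46, and all points move left together under the other baselines, by up to 4.42.

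Among the roles, mitochondrial translation factors had the highest median of the larger groups (3.82, 9 transcripts), followed by cytosolic initiation factors (3.34, 32 transcripts), cytosolic synthetases (3.06, 16), mitochondrial synthetases (2.65, 6) and cytosolic elongation factors (2.37, 6). For comparison, the median was 2.31 for 71 cytosolic ribosomal protein transcripts and 3.83 for 65 mitochondrial ribosomal protein transcripts. The mitochondrial factors thus lay beside the mitochondrial ribosome, although ICT1, counted among them, is itself named as a mitochondrial ribosomal protein in RefSeq. The elongation factors lay beside the cytosolic ribosome, but without the EEF1A1-named transcript, whose identity is uncertain, their median was 2.78. That value is the ratio of EIF5A2, a transcript of low FPKM (0.147 and 1.01). The ranges overlapped in every case. Lists of these sizes have no replicates, and no difference between roles was tested.

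Muscle markers followed the labels where they were listed. Of 10 muscle fibre markers, 6 had a row and all 6 were higher in the adult, and their summed FPKM went from 4246 to 108796, whereas the 4 listed of 5 embryonic muscle markers were lower, falling from 1719 to 40.8. Markers of other cells moved as well, and the summed FPKM of 4 cartilage markers fell from 19.8 to 0.682 and that of 3 Schwann cell markers from 18.9 to 0.689, while 3 endothelial markers went from 10.3 to 35.9. A single adipocyte marker of 6 (0.252 and 6.75 FPKM) and a single leukocyte marker of 6 (0.325 and 0.810 FPKM) were listed, and none of 9 neuronal and none of 10 red blood cell markers had a row, which means only that they are not in the table of called transcripts. The part of these cell types in the results below was not tested, and in bulk tissue more cells of a type and more RNA per cell cannot be told apart.

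**Figure D2:**
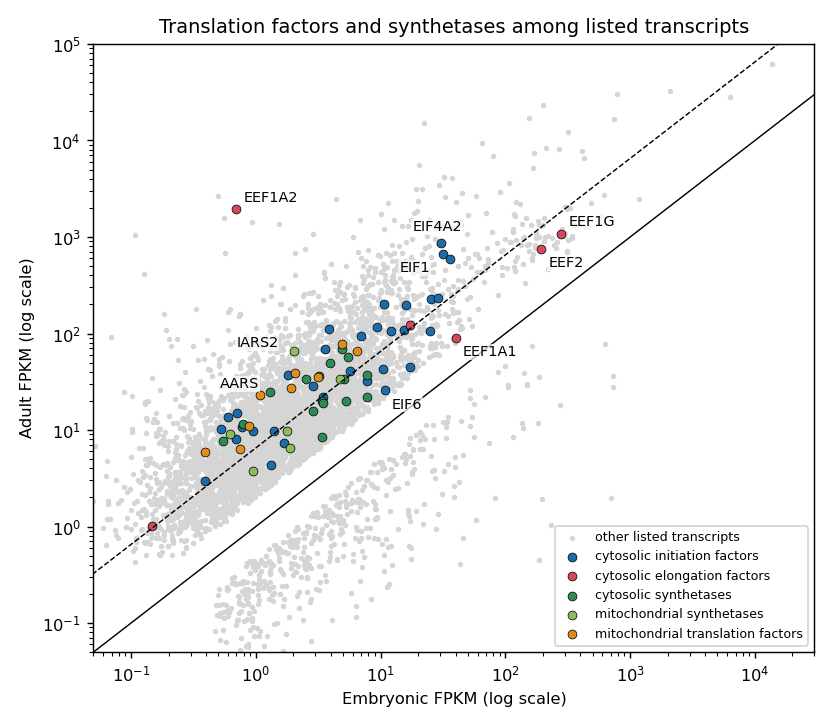
Each point is 1 listed transcript with its embryonic (horizontal) and adult (vertical) FPKM on log scales; coloured points are the 5 main roles, grey points the other listed transcripts, the solid line equal FPKM and the dashed line the median ratio of all listed transcripts. All coloured points lie above the solid line, some above and some below the dashed line, and EEF1A2 lies far from the others at 0.694 and 1952 FPKM.

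The elongation factors held the most extreme member. EEF1A2 (chr13:54623916-54631595, bosTau7), the muscle and neuronal isoform of the factor that carries charged tRNA to the ribosome, had 0.694 FPKM in the embryo and 1952 FPKM in the adult, a ratio of 2813. Its log2 ratio of 11.46 ranked 5 among the 5248 listed transcripts above 0 FPKM in both stages, and the 10 transcripts listed at 0 in the embryo have no ratio. Its FPKM ranked 44 of all 5288 in the adult and 4105 in the embryo. The value was high in the adult stage alone, and relative to every baseline its log2 ratio was still 7.04 or more. The other abundant factors changed far less. EEF1G, a subunit of the exchange factor that recharges eEF1A with GTP, had 280.3 FPKM in the embryo and 1085 FPKM in the adult (log2 ratio 1.95). EEF2, which moves the ribosome by a codon, had 193 and 753 FPKM (1.97). Both were more abundant per length than EEF1A2 in the embryo and less abundant in the adult, and both ratios were below every baseline. Of the summed FPKM of the 6 elongation factors among the members, EEF1A2 made up 0.131% in the embryo and 48.8% in the adult, EEF1G 52.8% and 27.1%, and EEF2 36.3% and 18.8%. EEF1B2 and EEF1D had no row, and HBS1L and EEFSEC were listed outside the rule. These are therefore not shares of all elongation factors.

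EIF5A, which despite its name helps the ribosome through difficult peptide bonds and carries the modified residue hypusine, had 17.1 FPKM in the embryo and 122 FPKM in the adult (log2 ratio 2.83). Its paralogue EIF5A2 had 0.147 and 1.01 FPKM (2.78), so the ratio of EIF5A to EIF5A2 was 116 in the embryo and 120.3 in the adult. The similar ratios of the paralogues rest on the low FPKM of EIF5A2, and with a pseudocount of 1 FPKM the log2 ratios were 2.76 for EIF5A and 0.81 for EIF5A2. EEF2K, the kinase that inhibits EEF2, had 6.01 and 44.6 FPKM (2.89), a larger ratio than its substrate. Without EEF1A2 the median of the elongation factors was 1.97, below the median of the cytosolic ribosomal proteins. Without the transcript named EEF1A1, whose identity is uncertain as described next, it was 2.78, above the median of all listed transcripts (2.71). That 2.78 is the ratio of EIF5A2 itself, which rests on low FPKM. Over the factors above 1 FPKM in both stages, the EEF1A1-named transcript included, the median was 1.96. The place of this small role thus depends on single transcripts.

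The transcript named EEF1A1, the general isoform, had the lowest ratio of all members, with 40.1 FPKM in the embryo and 89.5 FPKM in the adult (log2 ratio 1.16). By these values EEF1A1 was 57.9 times as abundant per length as EEF1A2 in the embryo, and EEF1A2 was 21.8 times as abundant as EEF1A1 in the adult. The EEF1A1 value is uncertain. The table places it at chr18:2907404-2960921 (bosTau7), the same span as GABARAPL2 and 1795 bp from KARS, whereas RefSeq (assembly ARS-UCD2.0) has EEF1A1 on another chromosome and lists a pseudogene, whose parent gene it does not name, between GABARAPL2 and KARS1. Of the 84 members matched to RefSeq by symbol, 82 were on the chromosome that the table gives, and the other two were EEF1A1 and a FAU transcript. Genomes hold many near-identical copies of EEF1A1, and a further listed transcript described as elongation factor 1-alpha had 0.522 and 1.29 FPKM (1.30). The order of the isoforms in each stage thus rests on EEF1A2 and a transcript whose identity was not settled.

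**Figure D3:**
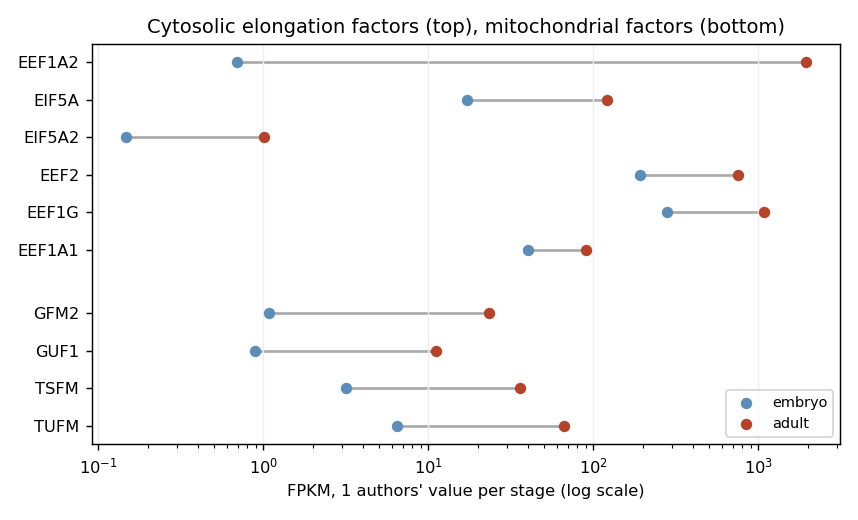
FPKM on a log scale in the embryo (blue) and in the adult (red) for 6 cytosolic elongation factors, above, and 4 mitochondrial factors, below, with 1 value per stage and no replicates. EEF1A2 goes from 0.694 to 1952 FPKM and crosses EEF1G and EEF2, while the EEF1A1-named transcript, at 40.1 and 89.5 FPKM, has the shortest line.

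All 32 cytosolic initiation factors were higher in the adult, with log2 ratios from 1.25 to 4.82, and 24 of them lay above the median of all listed transcripts. By complex the medians were 4.18 for the eIF4 group (6 transcripts), 3.80 for start codon selection and eIF2 (9), 3.34 for eIF2B (4) and 3.06 for eIF3 (12). Relative to the listed housekeeping genes, which were themselves all higher in the adult, all of these medians were negative.

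In the eIF4 group, EIF4A2, an RNA helicase that unwinds the mRNA leader, had 30.6 FPKM in the embryo and 858 FPKM in the adult (log2 ratio 4.81). EIF4G2, a scaffold without a binding site for EIF4E that serves cap-independent initiation, had 35.9 and 599 FPKM (4.06). These were the most abundant of the group in both stages. EIF4E, the cap-binding protein, had 0.530 and 10.4 FPKM (4.29), and EIF4G3, a scaffold that joins EIF4E to the helicase, had 0.707 and 14.8 FPKM (4.39). They had much lower FPKM values than EIF4A2 in both stages but ratios close to it. This closeness rests on their embryonic values below 1 FPKM. With a pseudocount of 1 FPKM the log2 ratios were 2.89 for EIF4E, 3.21 for EIF4G3 and 4.77 for EIF4A2. The smaller ratios were those of WBSCR1, an older symbol of the helicase cofactor eIF4H (1.39 and 9.76 FPKM, 2.81), and of EIF4A3, the helicase of the exon junction complex, which acts mainly in mRNA surveillance (10.4 and 43.3 FPKM, 2.05). EIF4A2 was 2.93 times as abundant per length as EIF4A3 in the embryo and 19.8 times in the adult. EIF4A1, EIF4B, EIF4G1 and PABPC1 had no row, so the helicase and scaffold isoforms cannot be compared in full.

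Start codon factors were led by EIF5, the GTPase activator of eIF2, with 3.89 FPKM in the embryo and 110.2 FPKM in the adult (log2 ratio 4.82), the largest ratio of the initiation factors. EIF1, which keeps scanning ribosomes from starting at wrong codons, had 31.4 and 668 FPKM (4.41). Its paralogue EIF1B had 3.49 and 22.0 FPKM (2.66), so that EIF1 was 9.01 times as abundant as EIF1B in the embryo and 30.3 times in the adult. EIF5 and EIF1, which act against each other at the start codon, thus had similar ratios. EIF5B, which joins the large subunit, had the smallest ratio of this list (1.33 and 4.39 FPKM, 1.73). EIF2A and EIF2D, which are separate from eIF2 and deliver tRNA by other routes, had log2 ratios of 4.27 and 3.80.

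The 3 subunits of eIF2 differed in ratio. EIF2S1, the alpha subunit that stress kinases phosphorylate, had 0.602 FPKM in the embryo and 13.5 FPKM in the adult (log2 ratio 4.49). EIF2S2, the beta subunit, had 0.690 and 7.99 FPKM (3.53), and EIF2S3, the gamma subunit that binds GTP and tRNA, had 1.69 and 7.40 FPKM (2.13). EIF2S3 was thus the most abundant of the 3 per length in the embryo and the least abundant in the adult. EIF2S1 shares its span in part with ATP6V1D (2.90 and 39.6 FPKM, 3.77). It is one of 10 members that overlap another listed transcript, and whether the strand was used to part their reads is not given in the sources used here. Of eIF2B, which reloads eIF2 with GTP, EIF2B4 had the largest ratio (1.82 and 36.9 FPKM, 4.34), followed by EIF2B1 (3.36), the catalytic subunit EIF2B5 (3.32) and EIF2B2 (0.393 and 2.97 FPKM, 2.92), while EIF2B3 had no row. FPKM within eIF2B spanned 7.26-fold in the embryo and 12.4-fold in the adult, so its subunits were no more even in the adult.

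The 12 listed eIF3 subunits lay within a narrow range of levels. Their FPKM spanned 5.05-fold in the embryo and 7.17-fold in the adult, from 5.73 (EIF3A) to 28.9 (EIF3G) in the embryo and from 32.3 (EIF3B) to 231 (EIF3G) in the adult. In log2 ratio they ran from EIF3E (10.8 and 203 FPKM, 4.24) through EIF3L (3.74), EIF3H (3.64), EIF3I (3.62), EIF3K (3.18), EIF3M (3.11), EIF3G (3.00), EIF3A (2.83), EIF3C (2.82), EIF3D (2.09) and EIF3B (2.05) to EIF3F (17.3 and 44.7 FPKM, 1.37). The 8 subunits of the structural core (A, C, E, F, H, K, L, M) had a median of 3.15 and the 4 outside it (B, D, G, I) one of 2.54. Both the largest and the smallest ratio were core subunits, and the ranges overlapped. EIF6, which keeps the large subunit from joining too early, had the smallest ratio of all initiation factors (10.8 and 25.7 FPKM, 1.25).

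**Figure D4:**
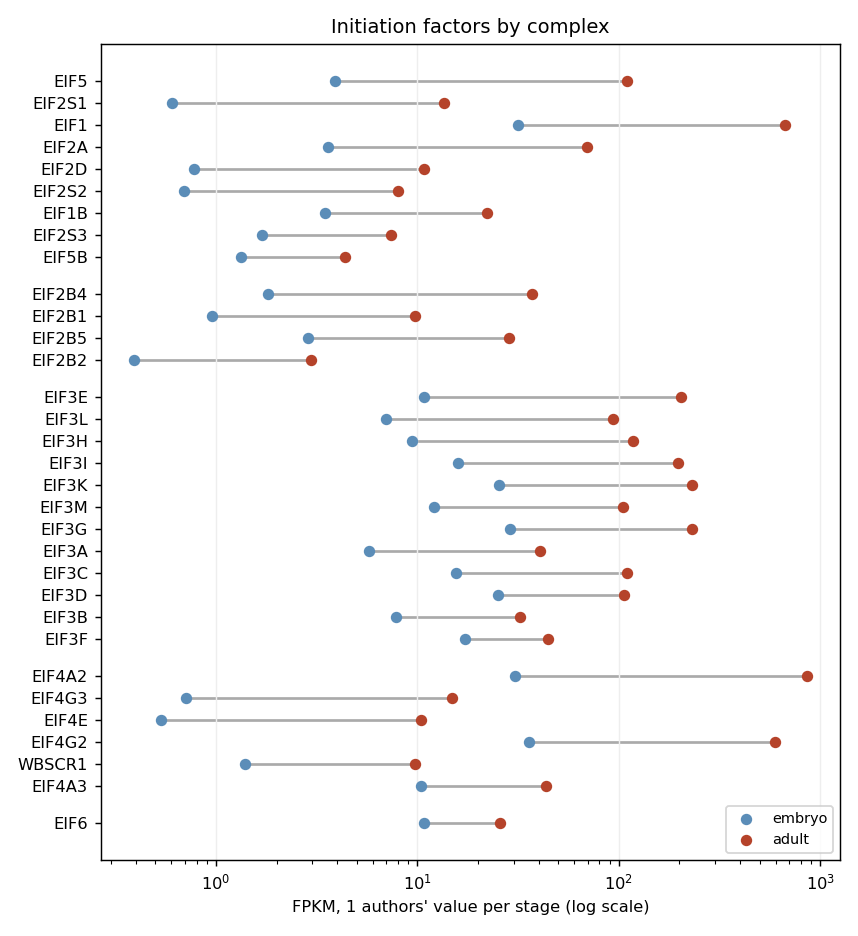
FPKM on a log scale in the embryo (blue) and in the adult (red) for the 32 cytosolic initiation factors, in blocks from top to bottom of start codon selection and eIF2, eIF2B, eIF3, the eIF4 group and EIF6, each ordered by ratio, with 1 value per stage. Lines are longest for EIF5 (3.89 to 110.2 FPKM) and EIF4A2 (30.6 to 858 FPKM) and shortest for EIF6 (10.8 to 25.7 FPKM), and eIF3 subunits lie closest together.

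The 4 regulators of initiation among the members had smaller ratios than EIF4E or EIF2S1, on which they act. EIF4EBP1, which binds EIF4E and blocks cap-dependent initiation, had 43.9 FPKM in the embryo and 119 FPKM in the adult (log2 ratio 1.44), and EIF4EBP2 had 13.2 and 50.8 FPKM (1.94). Both were below the ratio of EIF4E (4.29), and both were more abundant per length than EIF4E in each stage. Of the kinases that phosphorylate EIF2S1, the haem-regulated EIF2AK1 had 1.83 and 7.92 FPKM (2.11) and the double-stranded RNA sensor EIF2AK2 had 0.375 and 3.06 FPKM (3.03), again below EIF2S1 (4.49). The median of the 4 regulators was 2.03. A further 6 regulators were listed but not reached by the rule. PAIP1, a partner of poly(A)-binding protein, had 2.64 and 159.9 FPKM (5.92), PAIP2 had 8.71 and 155 FPKM (4.16), and PPP1R15A, which directs dephosphorylation of EIF2S1, had 2.32 and 36.8 FPKM (3.99). These 3 did not have small ratios, and the poly(A)-binding protein PABPC4 itself had 16.1 and 57.1 FPKM (1.82). MKNK2, a kinase of EIF4E, had 9.45 and 123 FPKM (3.70). PPP1R15B (1.72) and PDCD4, an inhibitor of the eIF4A helicase (1.73), had ratios as small as those of the EIF4E-binding proteins. Over all 10 listed regulators the median was 2.57.

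ETF1, the release factor that recognises stop codons, was the only cytosolic termination factor among the members. It had 1.38 FPKM in the embryo and 49.7 FPKM in the adult, and its log2 ratio of 5.17 stood above every baseline. Its partner GSPT1, a GTPase that is listed but was not reached by the rule, had 4.37 and 19.9 FPKM (2.19). ETF1 was thus lower than GSPT1 in the embryo and higher in the adult. HBS1L, which rescues stalled ribosomes and was likewise outside the rule, had 2.42 and 99.4 FPKM (5.36).

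All 16 listed cytosolic synthetases were higher in the adult, with log2 ratios from 1.30 to 4.25. AARS (chr18:1829587-1850876, bosTau7), which charges tRNA with alanine, had 1.31 FPKM in the embryo and 24.9 FPKM in the adult, and its log2 ratio of 4.25 was the largest of the cytosolic enzymes. Among all 22 synthetases it ranked 2 by ratio, 18 by embryonic FPKM and 10 by adult FPKM. AARS therefore moved from the lower part of the order to its middle, and did not stand apart: DARS for aspartate (0.792 and 11.5 FPKM, 3.86), IARS for isoleucine (0.543 and 7.70 FPKM, 3.83) and FARSB, the beta subunit of the phenylalanine enzyme (4.89 and 68.8 FPKM, 3.82), followed within 0.5 on this scale. Among the 5248 transcripts with a ratio AARS ranked 872, and relative to the housekeeping genes its log2 ratio was -0.16. The order at the top also rests on low embryonic values. With a pseudocount of 1 FPKM the log2 ratio of AARS was 3.49, below FARSB (3.57), and DARS and IARS had 2.80 and 2.49. The smallest ratios were those of CARS for cysteine (3.42 and 8.41 FPKM, 1.30) and QARS for glutamine (7.75 and 21.8 FPKM, 1.49). FARSB and SARS, which charges serine (5.46 and 57.7 FPKM, 3.40), had the highest adult FPKM of the cytosolic enzymes.

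The embryonic FPKM of the cytosolic synthetases spanned 14.4-fold and the adult FPKM 8.94-fold. Each of these enzymes is needed for all cytosolic protein synthesis. The lowest and highest lay closer together in the adult, but this rests on IARS (0.543 FPKM) and DARS (0.792 FPKM) in the embryo. Without both, a choice made after seeing the data, the adult span was the wider one. The remaining values ran from AARS (1.31) to VARS (7.83) in the embryo and from CARS (8.41) to FARSB (68.8) in the adult. FARSA, MARS, NARS, WARS and TARSL2 had no row, so that the alpha subunit of the phenylalanine enzyme and the methionine, asparagine and tryptophan enzymes are not analysed here. In mammals a set of synthetases forms a multisynthetase complex with 3 scaffold proteins. The 7 listed enzymes of the complex had a median of 3.50 (range 1.49 to 3.86) and the 9 free enzymes a median of 2.57 (range 1.30 to 4.25), and the ranges overlapped. The scaffold proteins had larger ratios than most enzymes. AIMP2 had 2.65 and 72.0 FPKM (4.77), EEF1E1 (AIMP3) had 0.455 and 8.17 FPKM (4.17), and SCYE1, which the table describes as AIMP1 and the rule did not reach, had 8.40 and 97.7 FPKM (3.54). AIMP2 meets EIF2AK1 end to end on chromosome 25, and their log2 ratios were 4.77 and 2.11.

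The 6 listed mitochondrial synthetases ranged from 1.78 to 5.03 in log2 ratio. IARS2, the isoleucine enzyme, had 2.02 FPKM in the embryo and 66.3 FPKM in the adult, and its log2 ratio of 5.03 was the largest of all 22 synthetases and above every baseline. It made up 16.8% of the summed FPKM of the mitochondrial synthetases in the embryo and 51.4% in the adult, while the share of CARS2 fell from 39.5% to 26.1%. IARS2 shares its span in part with RAB3GAP2 (1.08 and 11.996 FPKM, 3.48), and RARS2 with SLC35A1 (0.946 and 8.48 FPKM, 3.16). RARS2 for arginine followed (0.621 and 9.01 FPKM, 3.86), then CARS2 for cysteine (4.75 and 33.6 FPKM, 2.82), LARS2 for leucine (2.47), MARS2 for methionine (0.953 and 3.75 FPKM, 1.98) and TARS2 for threonine (1.89 and 6.47 FPKM, 1.78). FPKM spanned 7.65-fold in the embryo and 17.7-fold in the adult, but the adult span rests on IARS2, and without it, a choice made after seeing the data, the spans were 7.65-fold and 8.96-fold.

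The median of the mitochondrial synthetases was lower than that of the cytosolic ones by 0.42 on the log2 scale, but with transcripts above 1 FPKM in both stages alone the difference was -0.0013. For 5 amino acids both enzymes were listed, and the mitochondrial enzyme had the larger ratio for 3 of them. The difference, mitochondrial minus cytosolic, was 1.53 for cysteine, 1.21 for isoleucine, 0.13 for arginine, -1.02 for leucine and -1.87 for threonine. No common direction appeared, and a common scaling of a stage leaves these differences unchanged. For isoleucine the cytosolic enzyme had 0.268 times the FPKM of the mitochondrial one in the embryo and 0.116 times in the adult. For threonine the cytosolic enzyme had 2.10 times the FPKM in the embryo and 7.69 times in the adult. The order of the enzymes within a pair was the same in both stages, with the cytosolic one higher in 3 of the 5.

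**Figure D5:**
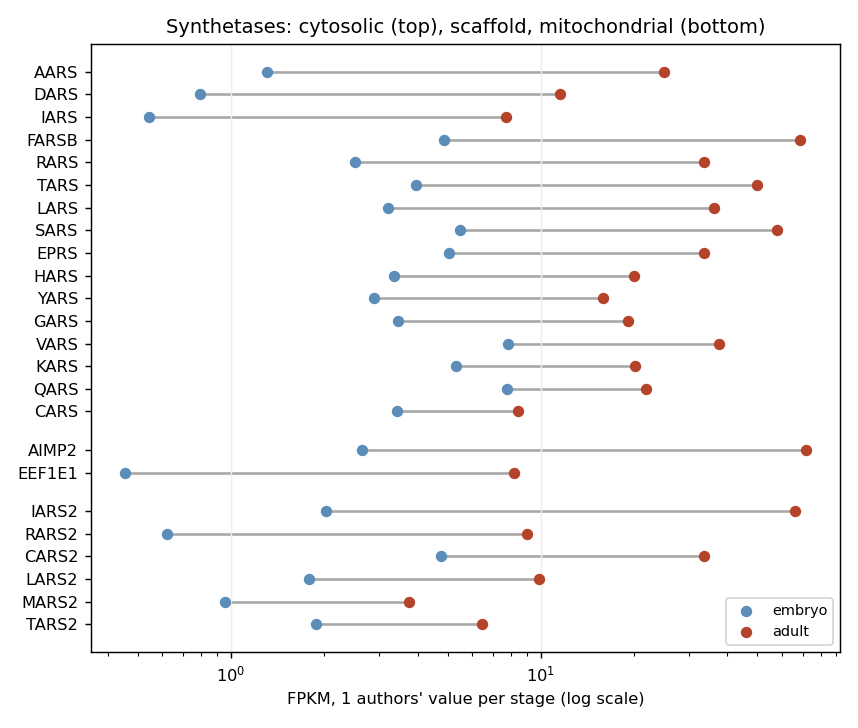
FPKM on a log scale in the embryo (blue) and in the adult (red) for 16 cytosolic synthetases, 2 scaffold proteins of their complex and 6 mitochondrial synthetases, each block ordered by ratio, with 1 value per stage. AARS (1.31 to 24.9 FPKM) heads the cytosolic and IARS2 (2.02 to 66.3 FPKM) the mitochondrial enzymes, and both blocks hold enzymes with short lines, CARS and TARS2 among them.

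The 9 mitochondrial translation factors among the members had log2 ratios between 3.09 and 4.42, all above the median of all listed transcripts. GFM2, which recycles mitochondrial ribosomes, had 1.08 FPKM in the embryo and 23.2 FPKM in the adult (4.42). GATC, a subunit of the amidotransferase that completes the glutamine tRNA of mitochondria, had 2.08 and 38.5 FPKM (4.21), and ICT1, which frees stalled mitochondrial ribosomes, had 4.90 and 78.4 FPKM (4.002). RefSeq names ICT1 as MRPL58, a mitochondrial ribosomal protein, and it stayed a member only under its older symbol. The release factor MTRF1 (0.394 and 5.93 FPKM, 3.91), the recycling factor MRRF (3.82) and GUF1 (3.64) followed. TSFM (3.17 and 35.9 FPKM, 3.50) and its partner TUFM (6.48 and 66.0 FPKM, 3.35), which delivers charged tRNA in mitochondria, had smaller ratios. MTFMT, which formylates the initiator tRNA, had the smallest ratio (0.750 and 6.39 FPKM, 3.09). TUFM, the mitochondrial counterpart of EEF1A, was thus far from the ratio of EEF1A2 and above that of the EEF1A1-named transcript. GATC shares its span in part with TRIAP1 and COX6A1. Relative to the housekeeping genes the median of the role was -0.59. The narrow range belongs to the members alone: 7 further factors of the same list, outside the rule, ran from MTG1, a GTPase of mitochondrial ribosome assembly (4.75 and 15.2 FPKM, 1.67), to LRPPRC (7.19). Among them was GFM1, the mitochondrial factor that moves the ribosome, with 1.05 and 17.7 FPKM (4.07), above TUFM and TSFM. Over all 16 the median was 3.73.

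Of the remaining members, SEPSECS, the enzyme that completes selenocysteine on its tRNA, had 0.293 and 3.75 FPKM (log2 ratio 3.68), and TRNAU1AP, which binds that tRNA, had 0.628 and 3.96 FPKM (2.66). The 12 ribosomal protein transcripts under other names had a median of 2.63. Among them the transcript described as MRPS15 had the largest ratio (0.792 and 34.7 FPKM, 5.45). FAU, a ubiquitin-like protein fused to a small subunit protein, had 2 listed transcripts, with 41.9 and 358 FPKM (3.09) and with 49.4 and 227 FPKM (2.203), and RefSeq places the gene on the chromosome of only one of them. EIF2C1, caught by its prefix, had 0.920 and 6.14 FPKM (2.74).

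The rule missed 33 listed genes that the role lists hold, and all 33 were higher in the adult, with a median log2 ratio of 3.26 beside 3.32 for the 79 factors, synthetases and regulators. The largest were LRPPRC, which stabilises mitochondrial mRNA (0.137 and 20.1 FPKM, 7.19), PAIP1 (5.92), HBS1L (5.36) and DPH3, which takes part in the diphthamide modification of EEF2 (4.95). NARS2, the mitochondrial asparagine enzyme, had 0.269 and 5.50 FPKM (4.35), and with it the median of the mitochondrial synthetases was 2.82 in place of 2.65. By the gene numbers of the deposited GO lists, called genes were 29 of the 53 with initiation factor activity, 13 of the 21 with elongation factor activity and 21 of the 44 with aminoacyl-tRNA ligase activity, against 4861 of 21673 genes in all. Genes of these roles without a row in the table could not be followed.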

How the data were processed

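Reads of 3 embryonic and 3 adult libraries were trimmed with Trim Galore, aligned to bosTau7 with TopHat2 2.0.14 and quantified with Cufflinks by the authors. The deposited FPKM values are 1 per stage for each called transcript; how the 3 libraries were merged and whether counting used strand are not given in the sources used here. FPKM is scaled to mapped fragments, so a different share of non-exonic fragments could move all values of a stage together. By the study's mapping summary that share was larger in the embryonic libraries. Its effect on the adult-to-embryo ratios was not tested and not corrected here. Columns of fold change, p-value and q-value hold the authors' own comparison and were not used; the other deposited gene numbers, per GO term, were copied.

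Log2 ratios, counts and medians were computed with Python 3.11.15, pandas 2.3.3 and numpy 2.4.6, tested on simulated data. Alternatives were 4 baselines, pseudocounts of 0.1 and 1 FPKM, minimums of 1 FPKM in both stages and 2 FPKM in the higher stage, 1 transcript per gene, and full matches to the annotation. Named genes were EEF1A2, EEF1A1, AARS, all eIF2, eIF2B, eIF3 and eIF4F parts, genes with over 1 transcript, and in each other list the 4 largest and 2 smallest ratios and the 2 highest adult FPKM. Members and lists were chosen with earlier results of these data known. Roles of members in no list, the splits of eIF3 and of the synthetases, and further examples were chosen after their values were seen. Gene names were matched to RefSeq by symbol for 84 members. Sequences and promoters are not analysed here. The values of 1 member are not reported here.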

Additional observations from a re-analysis of the deposited data

How the results depend on the processing

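No paired analysis was possible because the table gives 1 pooled value per stage, and for the same reason no replicate could be left out. The median log2 ratio of the members became 0.46 against all listed transcripts, 0.86 against cytosolic ribosomal proteins, -1.25 against housekeeping genes and -0.090 with equal FPKM totals. In the same order, it became 0.63, 1.03, -1.08 and 0.085 for initiation factors, -0.33, 0.067, -2.04 and -0.88 for elongation factors, 0.36, 0.76, -1.35 and -0.19 for cytosolic synthetases, -0.056, 0.34, -1.77 and -0.60 for mitochondrial synthetases, and 1.12, 1.51, -0.59 and 0.57 for mitochondrial translation factors. The EEF1A1-named transcript became -1.55, -1.15, -3.26 and -2.10, and AARS -0.16 against housekeeping genes. Members above 0 numbered 9 against housekeeping genes and 47 with equal totals, and those below 0 numbered 31, 25, 87 and 49 in the order above. The baselines were computed from the called transcripts alone, and other calls would give other baselines. A pseudocount of 1 FPKM lowered the median of the members to 2.64 and that of the mitochondrial factors to 3.16. No other alternative turned a member or moved a median of a role beyond an interval taken from the ranked ratios of its transcripts. That interval uses transcripts, which are not replicates, and is wide for the small roles, so it could hardly show a move there. All 96 transcripts were full matches to the annotation. Leaving out EEF1A2 or the EEF1A1-named transcript, and restricting to the 79 factors, synthetases and regulators, were chosen after seeing the data. The table gives no fragment number for any transcript, and 25 members below 1 FPKM in the embryo have ratios that rest on low values.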

Other observations

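Enzymes that mature and modify tRNA, a step ahead of the synthetases, were listed for 26 of 60 symbols, and all 26 were higher in the adult with a median log2 ratio of 2.66, close to that of all listed transcripts (2.71). The largest ratios were those of TPRKB (0.454 and 16.3 FPKM, 5.16) and OSGEP (0.918 and 18.3 FPKM, 4.31), both of the complex that makes a modified adenosine beside the anticodon, ELAC2, which trims the 3' end (0.229 and 6.34 FPKM, 4.79), and MTO1, which modifies mitochondrial tRNA (0.119 and 2.87 FPKM, 4.59).

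Targets of the integrated stress response, the programme that follows phosphorylation of EIF2S1, were listed for 11 of 23 symbols, 9 higher and 2 lower in the adult (81.8% higher, beside 90.3% of all listed transcripts). Their median log2 ratio was 3.31, with quartiles of 1.78 and 5.40. ATF4, its central transcription factor, had 24.3 FPKM in the embryo and 1500.1 FPKM in the adult (log2 ratio 5.95), followed by VLDLR (5.70), ATF3 (5.64) and NUPR1 (5.15). The other higher targets were DDIT4 (3.32), CEBPG (3.31), CTH (3.11), DDIT3 (1.89) and SHMT2 (1.67). DDIT3 and SHMT2 were below the median of all listed transcripts (2.71). The serine synthesis genes PHGDH (6.48 and 1.42 FPKM, -2.19) and PSAT1 (3.43 and 1.27 FPKM, -1.43) were lower. ASNS, TRIB3 and CHAC1, other well known targets, had no row.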
